A study of Homo sapiens with 4 samples.

Results

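ETS proteins are transcription factors that share an ETS DNA-binding domain and bind sites built around the core GGAA. The 10 ETS genes described here are ETV1, ETV4, ETV5, ETV6, ERG, ELK4, SPDEF, EHF, ELF3, and ETS2, taken by symbol from the 60880 genes of an RNA-Seq count table and all found in it. They belong to a human family of 28 genes, and the other 18 are given for comparison. In prostate cancer, chromosome rearrangements often place ERG, ETV1, ETV4, or ETV5 under the promoter of an androgen-regulated gene such as TMPRSS2. In LNCaP cells, the parental line of the cells studied here, a cryptic rearrangement carries the whole ETV1 gene from chromosome 7 into the MIPOL1 region of chromosome 14. Other members, SPDEF, EHF, and ELF3 among them, belong to the normal program of luminal and secretory epithelium.

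Counts came from 2 groups of 2 libraries. LNCaP95, an androgen-independent subline of the LNCaP prostate cancer line, was labeled WT (replicates 1 and 2). LN95(KO) was its derivative in which UGT2B17, a glucuronosyltransferase that inactivates androgens, was targeted with CRISPR (replicates 3 and 4). Both were grown in RPMI1640 with charcoal-stripped serum, which is depleted of steroids, and received no treatment before RNA extraction. The labels name LN95 as the line of all 4 libraries, whereas the series design names LNCaP for the knockout, and neither the number of knockout clones nor whether the replicates were separate cultures was given. The p-values below therefore measure the spread between these libraries only.

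Reads of UGT2B17 itself numbered 2788 and 2748 in the LNCaP95 libraries but 21 and 20 in the knockout libraries (log2 fold change -7.04), so the labels matched the target. Gene reads numbered 17330338 to 18813193 per library, at which 3 counts, the limit that a count of 0 allows, equal 0.162 to 0.169 CPM, the count relative to the scaled library total. The share of reads without an alignment was 3.85% and 3.96% for LNCaP95 against 8.05% and 7.71% for LN95(KO), and the part of this difference in the results below was not tested. Among luminal markers all 7 were present, with summed CPM of 2986 to 2989 in LNCaP95 and 3086 to 3179 in LN95(KO). KRT5 and TP63 (basal cells), PTPRC, CD53, and CDH5 (blood and vessel cells), and DCN (fibroblasts) were each at 3 counts or fewer in every library. The 6 blood and vessel markers found of 7 listed summed to 16.4 to 16.8 CPM in LNCaP95 and 51.8 to 55.0 in LN95(KO), nearly all of it LCP1, which was called higher, as was VWF at 8, 8, 49, and 58 counts. The 3 basal markers summed to 0.162 to 0.164 and 1.02 to 1.26 CPM, mostly KRT14, which was called higher at 1, 2, 17, and 20 counts, and the 4 fibroblast markers to 29.1 to 29.8 and 32.6 to 35.6 CPM. The part of these marker sums in the results was not tested, and in bulk RNA fewer cells of a type and less RNA per cell cannot be told apart.

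Most of the 10 ETS genes held nearly the same mRNA level with and without UGT2B17. Of the 9 that could be tested, 6 differed at an adjusted p under 0.05 (edgeR quasi-likelihood test, adjusted over 15626 genes), and 59.8% of all genes tested did so. SPDEF and ETV4 rose in LN95(KO), and ETV1, EHF, ETV5, and ETV6 fell. A single gene, ETV4, also passed a 2-fold change and is termed called, against 18.0% of all genes tested. That 1 of 9 was a rise, where 8.86% of all genes were called higher. None of the 9 fell by more than 2-fold, where 9.13% of all genes were called lower. ETV4 passed the filter on low counts (minimum count 10) only through LN95(KO), where it was higher, so its call could only be a rise. For 6 of the 9 the 2 groups did not overlap, which held for 79.8% of all genes. By these counts the listed genes did not stand apart from the rest of the transcriptome. The median log2 fold change of the 9 was -0.07 and their median absolute change 0.22, against -0.01 and 0.37 over all genes tested. The 95% intervals of the log2 fold changes of all 8 uncalled members lay within a 2-fold change in either direction.

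**Figure D1:**
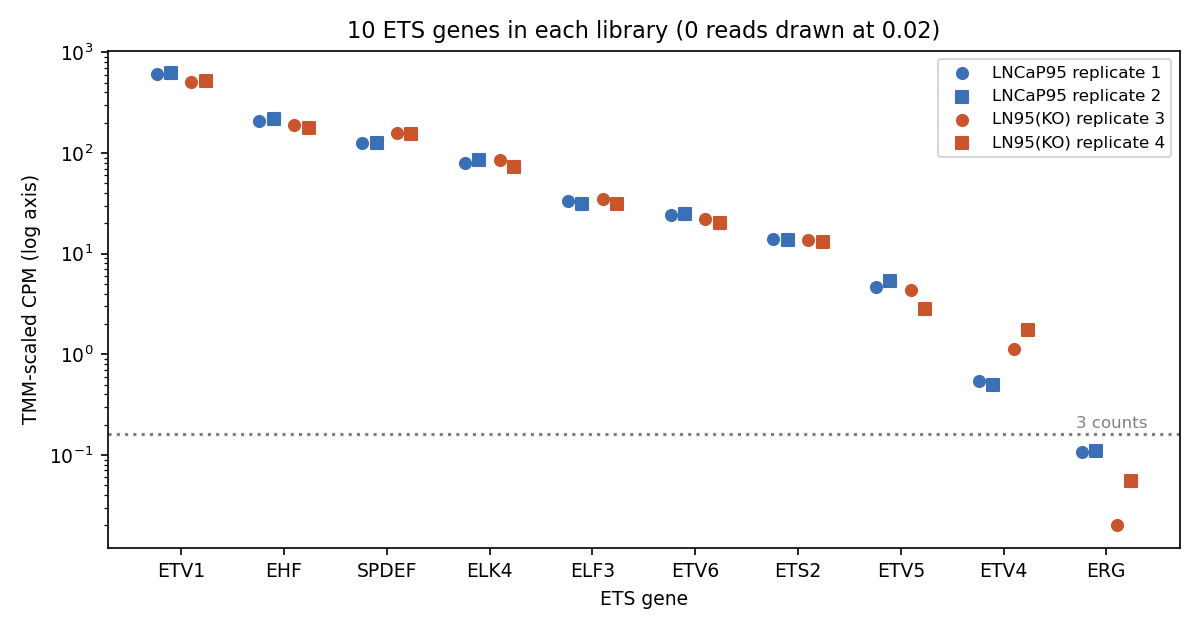
TMM-scaled CPM (log axis) of each of the 10 ETS genes in the 4 libraries, with LNCaP95 in blue and LN95(KO) in orange, each point 1 library, a dotted line at 3 counts, and 0 reads drawn at the bottom of the axis. ETV1 is the highest at 510 to 619 CPM, ETV4 at 0.491 to 1.75 CPM is the only one called, and ERG sits under the dotted line.

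Levels of different genes were compared per kb of exon. SPDEF averaged 73.8 CPM per kb over the 4 libraries (range 65.6 to 81.9), ETV1 58.9 (53.2 to 64.6), and EHF 29.9 (26.7 to 32.8). These placed SPDEF, ETV1, and EHF at the percentiles 96.8, 95.8, and 90.1 of 12597 tested protein-coding genes. A gap followed, with ELK4 at 6.62 CPM per kb (5.97 to 7.01), ELF3 at 4.50 (4.28 to 4.84), ETV6 at 3.16 (2.81 to 3.45), and ETS2 at 2.75 (2.65 to 2.82). ETV5 at 0.744 (0.483 to 0.935) and ETV4 at 0.278 (0.140 to 0.498) were close to the lower end of expressed genes, at the percentiles 16.6 and 7.76. The ranges of ETV6 and ETS2 overlapped, as did those of ETV5 and ETV4, whereas the other neighbors in this order were separated. The order of the top pair depended on the length used. With the longest transcript in place of the union of exons, ETV1 averaged 87.5 and SPDEF 73.9 CPM per kb.

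Together, SPDEF, ETV1, and EHF supplied 64.3% to 66.5% of the summed per-kb level of the 28 ETS genes in every library. The make-up within that share differed between the groups. ETV1 supplied 26.3% and 26.1% of the family sum in LNCaP95 and 21.0% and 21.5% in LN95(KO). SPDEF supplied 27.1% and 26.7% in LNCaP95 and 32.3% in both LN95(KO) libraries. SPDEF and ETV1 were thus nearly level in LNCaP95, and SPDEF led in LN95(KO). These shares rest on 2 libraries a group and were not tested. With the longest transcript, ETV1 led SPDEF in LNCaP95 (31.5% against 21.9% in replicate 1 and 31.3% against 21.6% in replicate 2). On that length SPDEF was marginally ahead in LN95(KO), at 26.7% against 25.6% in replicate 3 and 26.6% against 26.2% in replicate 4. On both lengths the ETV1 share was lower and the SPDEF share higher in LN95(KO).

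**Figure D2:**
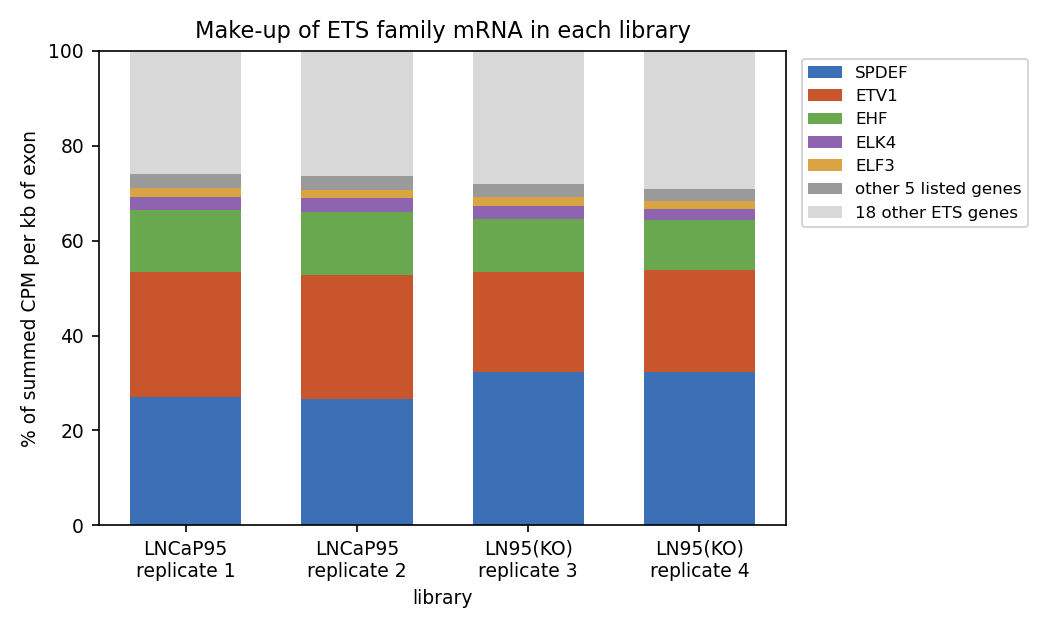
Stacked bars show, for each library, the percentage of the summed CPM per kb of exon of all 28 ETS genes that each gene or group of genes supplied. SPDEF (blue) widens from 26.7% and 27.1% to 32.3% and ETV1 (orange) narrows from 26.1% and 26.3% to 21.0% and 21.5% between the LNCaP95 and LN95(KO) bars, with the 18 other ETS genes as the light grey top segment.

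The PEA3 group holds ETV1, ETV4, and ETV5, activators whose genes respond to growth factor signaling through ERK and which are each recurrent fusion genes in prostate cancer. ETV1 (ENSG00000006468.13_4, GRCh37 chr7:13930854-14031050, minus strand) was counted at 11286 and 11358 reads in LNCaP95 and at 9038 and 9524 in LN95(KO), or 611, 619, 510, and 521 CPM. Both LN95(KO) libraries lay below both LNCaP95 libraries. ETV1 fell by 0.25 on the log2 scale (SE 0.05, 95% interval -0.35 to -0.16, adjusted p = 0.000111), that is 1.19-fold. The fall kept its direction and an adjusted p of at most 0.00346 in every alternative fit against no change, with log2 fold changes of -0.29 to -0.20. ETV1 thus stayed among the most abundant transcripts in cells both with and without UGT2B17.

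ETV4 (ENSG00000175832.12_3, chr17:41605212-41656988, minus strand) was counted at 10 and 9 reads in LNCaP95 and at 20 and 32 in LN95(KO), or 0.541, 0.491, 1.13, and 1.75 CPM. The groups did not overlap, and the 2 LN95(KO) libraries were farther apart than the 2 of LNCaP95. ETV4 rose 2.77-fold (log2 1.47, SE 0.38, 95% interval 0.67 to 2.27, adjusted p = 0.00296). Without LN95(KO) replicate 4 the log2 fold change was 1.12 with an adjusted p of 0.0959, and DESeq2 gave 1.48 with 0.0561, so the call rested on that library and on the tool. In LNCaP95 alone ETV4 would not have passed the filter on low counts, so it was tested only because of its LN95(KO) reads. Even after the rise ETV4 remained far below ETV1 per kb. ETV5 (ENSG00000244405.7_3, chr3:185764103-185828107, minus strand) had 86 and 99 reads in LNCaP95 and 77 and 51 in LN95(KO), or 4.65, 5.40, 4.34, and 2.79 CPM. The groups were apart, with replicate 3 close to LNCaP95 and replicate 4 clearly lower. ETV5 fell by 0.50 on the log2 scale (SE 0.20, 95% interval -0.93 to -0.07, adjusted p = 0.0451). This did not hold without LN95(KO) replicate 4 (-0.21, adjusted p = 0.413) or without LNCaP95 replicate 2 (-0.39, 0.197), and without LN95(KO) replicate 3 it was -0.84 (0.00867). ETV1 and ETV5 thus both fell, though ETV5 did so in only some of the fits. The filter left only a rise of ETV4 testable, so its direction cannot be set against theirs.

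At the ETV1 locus on chromosome 7, DGKB, a diacylglycerol kinase gene 154 kb away, had 463, 455, 410, and 451 reads and a log2 fold change of -0.06 (adjusted p = 0.554). At the chromosome 14 region into which the LNCaP rearrangement carries ETV1, MIPOL1 had 538, 539, 488, and 505 reads and a log2 fold change of -0.08 (adjusted p = 0.359). FOXA1, the pioneer factor of luminal cells, lies 10.4 kb from MIPOL1 and had 12978, 12740, 6956, and 6953 reads. It fell by 0.85 on the log2 scale (adjusted p = 4.10e-11), more than ETV1 but under 2-fold. TTC6, on its other side, rose by 0.28 (adjusted p = 0.0311). None of these 4 neighbors was called, and those in the chromosome 14 region differed in direction. The counts do not separate reads of the native ETV1 copy from those of the rearranged copy. Among 367 tested protein-coding genes within 2-fold of the mean CPM of ETV1, the 5 whose centered log2 CPM ran closest to ETV1 over the 4 libraries were CALD1, EPRS1, WDR1, UBE2D3, and HDLBP, at root mean square distances of 0.0153 to 0.0220.

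SPDEF (ENSG00000124664.10_3, chr6:34505579-34524110, minus strand), a prostate-derived ETS factor that prefers a GGAT core and is linked to secretory cell differentiation, had 2322 and 2312 reads in LNCaP95 and 2779 and 2856 in LN95(KO). At 126, 126, 157, and 156 CPM its libraries were nearly equal within each group and apart between them. SPDEF rose by 0.31 on the log2 scale (SE 0.05, 95% interval 0.21 to 0.42, adjusted p = 3.14e-05), or 1.24-fold. The alternatives gave 0.28 to 0.37, with adjusted p-values up to 0.000782. Of 11 genes linked to SPDEF in secretory epithelium, 5 were tested, 2 were called higher and 1 lower, 60.0% against 18.0% of all genes tested. CREB3L1 and TFF1 passed the filter on low counts only through LN95(KO). The share therefore rests in part on genes that could be tested only because they were higher there. AGR2, a protein disulfide isomerase of secretory cells, had 299, 321, 674, and 668 reads and rose 2.21-fold (adjusted p = 2.37e-09). CREB3L1, a transcription factor of the secretory pathway, had 2, 2, 23, and 19 reads, a ratio of pooled scaled counts of 10.7 (95% counting interval 3.90 to 41.2). TFF3, a trefoil peptide of mucous cells, went the other way, with 113, 102, 34, and 35 reads and a fall of 1.60 on the log2 scale (adjusted p = 1.59e-06).

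EHF and ELF3, with ELF5, form the epithelium-specific ESE group. EHF (ENSG00000135373.12_3, chr11:34642640-34684835, plus strand), an epithelial ETS factor with repressor activity, had 3836, 3976, 3368, and 3227 reads, or 208, 217, 190, and 177 CPM. Both LN95(KO) libraries were the lower ones. EHF fell by 0.21 on the log2 scale (SE 0.05, 95% interval -0.32 to -0.10, adjusted p = 0.00209). ELF3 (ENSG00000163435.15_3, chr1:201977073-201986311, plus strand), a factor of epithelial differentiation, had 612, 565, 617, and 562 reads, or 33.1, 30.8, 34.8, and 30.8 CPM. The groups overlapped, and its log2 fold change of 0.04 (95% interval -0.14 to 0.21, adjusted p = 0.724) was smaller than the spread between replicates. ELF3 shared 18.5% of its exon bases with other annotated genes, an antisense gene among them, so part of its reads could not be assigned to it alone. ELF5, the third ESE gene, lies 95.9 kb from EHF on the opposite strand and had 5 and 1 reads in LNCaP95 and 21 and 26 in LN95(KO). Like ETV4, ELF5 passed the filter on low counts only through LN95(KO), where it was higher. ELF5 was called higher (log2 2.95, SE 0.52, adjusted p = 0.000112), and its ratio of pooled scaled counts was 8.01 (95% counting interval 3.42 to 22.9). The filter allowed only a rise for ELF5, so the directions of EHF and ELF5 cannot be compared.

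**Figure D3:**
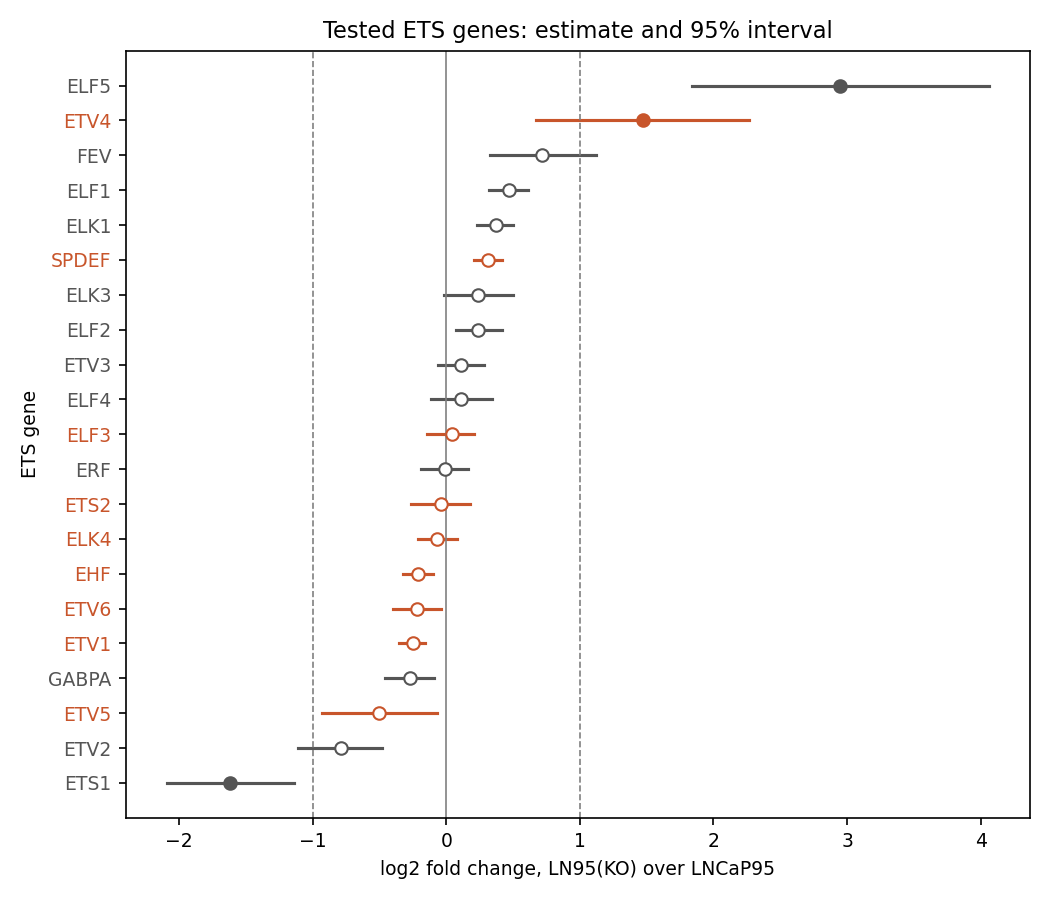
Log2 fold change of LN95(KO) over LNCaP95 for the 21 tested ETS genes, each point an estimate with its 95% interval, orange for the listed genes, grey for the other tested ETS genes, filled where called, with dashed lines at a 2-fold change. ELF5 and ETV4 lie to the right of the dashed lines and ETS1 to the left, and the intervals of 16 of the 18 uncalled genes stay between the lines.

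ETS2, ETV6, ERG, and ELK4 belong to other branches of the family. ETS2 (ENSG00000157557.11_3, chr21:40177107-40196879, plus strand), an activator that responds to RAS and ERK signaling, had 259, 251, 244, and 241 reads, or 13.8 ± 0.232 CPM in LNCaP95 and 13.5 ± 0.409 in LN95(KO) (SD, n = 2). The groups overlapped, with a log2 fold change of -0.04 (95% interval -0.26 to 0.18, adjusted p = 0.761). Its closest relative ETS1 had 84 and 89 reads in LNCaP95 and 32 and 23 in LN95(KO) and fell by 1.62 on the log2 scale (SE 0.22, adjusted p = 8.42e-06), the only ETS gene called lower. ETV6 (ENSG00000139083.10_2, chr12:11802608-12048311, plus strand), a repressor known from leukemia fusions, had 447, 458, 389, and 371 reads, or 24.2, 25.0, 21.9, and 20.3 CPM. Its groups did not overlap, and ETV6 fell by 0.22 on the log2 scale (SE 0.09, 95% interval -0.40 to -0.04, adjusted p = 0.0379). That p rose above 0.05 without LNCaP95 replicate 1 (0.0947), LNCaP95 replicate 2 (0.179), or LN95(KO) replicate 4 (0.163). ERG (ENSG00000157554.18_3, chr21:39751949-40033704, minus strand), the most frequent fusion gene of prostate cancer and otherwise a factor of endothelial and blood cells, had 2, 2, 0, and 1 reads. It was not detectable above 3 counts in any library, so no fold is given, and its relative FLI1 (1, 3, 0, and 0 reads) was likewise at the limit.

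ELK4 (ENSG00000158711.13_2, chr1:205566684-205601139, minus strand) is a ternary complex factor that binds DNA with the serum response factor SRF. It had 1474, 1568, 1507, and 1330 reads, or 79.8, 85.5, 85.0, and 72.8 CPM. The groups overlapped, and the 2 LN95(KO) libraries spanned a wider range than the 2 of LNCaP95. The log2 fold change was -0.07 (SE 0.07, 95% interval -0.21 to 0.08, adjusted p = 0.424). Without LN95(KO) replicate 3 it was -0.18 (0.0312) and without LN95(KO) replicate 4 it was 0.05 (0.557). Its neighbor SLC45A3, an androgen-regulated prostate gene, lies 25.8 kb away on the same strand and can form a read-through transcript with ELK4. SLC45A3 had 219, 235, 1706, and 1585 reads and rose 7.42-fold (adjusted p = 6.19e-15), while the interval of ELK4 held 0 and lay well inside a 2-fold change. A read-through transcript is counted partly on each gene and could not be separated here.

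Upstream sequences are shown for this neighboring pair and for ETV1, the gene with a rearrangement, to set the letters beside the levels. They are the 250 bases before the annotated start, 5′ to 3′ in the direction of transcription, from RefSeq on GRCh38.p14, a later build than that of the coordinates above, with GGAA or its reverse complement in capitals. A window was present for 8 of the 10 listed genes, with several starts for some, and the most upstream of the 6 windows of ETV1 is printed.
ELK4 (chr1:205632012-205632261, minus strand): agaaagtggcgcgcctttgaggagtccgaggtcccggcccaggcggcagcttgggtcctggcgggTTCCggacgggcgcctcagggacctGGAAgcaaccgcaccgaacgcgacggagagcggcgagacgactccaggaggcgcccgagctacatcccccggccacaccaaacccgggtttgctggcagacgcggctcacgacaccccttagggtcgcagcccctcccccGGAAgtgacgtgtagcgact
SLC45A3 (chr1:205680510-205680759, minus strand): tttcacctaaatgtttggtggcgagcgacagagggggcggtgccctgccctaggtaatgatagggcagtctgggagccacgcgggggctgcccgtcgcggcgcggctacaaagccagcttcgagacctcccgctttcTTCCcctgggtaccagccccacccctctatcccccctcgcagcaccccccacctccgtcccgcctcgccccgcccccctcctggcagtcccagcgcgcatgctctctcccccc
ETV1 (chr7:13991426-13991675, minus strand): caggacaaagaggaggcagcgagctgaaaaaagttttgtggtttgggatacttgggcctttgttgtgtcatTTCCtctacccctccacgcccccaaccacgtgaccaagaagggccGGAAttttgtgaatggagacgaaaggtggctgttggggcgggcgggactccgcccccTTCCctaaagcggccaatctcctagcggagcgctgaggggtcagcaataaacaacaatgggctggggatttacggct
ELK4 and ETV1 held 3 copies each of the core in these windows and SLC45A3 held 1, on either strand, and 92.7% of 35116 windows of this length held at least 1. The longer ETS motif CCGGAAG, on either strand and containing the core, occurred in 8.5% of all windows and in 1 of the 8 listed genes, ELK4, where its first base lay 22 bases before the start. Among 11046 tested genes with a window, 18.4% held this motif, against 11.1% of 934 genes called higher and 9.7% of 921 called lower, and no test was made of these shares. The median log2 fold change was -0.01 both with and without the motif. The androgen receptor half-site AGAACA, on either strand, occurred in 12.4% of all windows. Counted by gene, it occurred in 10.7% of 11046 tested genes with a window and in 1 of the 8 listed genes, ETV1. Of the 6 windows of ETV1 it occurred in 2, though not in the one printed. Those 2 windows overlap and hold the same site, 17 and 13 bases before their starts. These are matches of letters and not measured binding sites.

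Over the whole family, 21 of 28 genes were tested and 3 were called (ELF5 and ETV4 higher, ETS1 lower), 14.3% against 18.0% of all genes tested. ELF5 and ETV4 could be tested only through LN95(KO), the group where they were higher. Beyond the calls, 11 more passed an adjusted p of 0.05 with changes under 2-fold, 5 of them higher and 6 lower. With the calls this made 14 of 21, where 59.8% of all genes tested passed. Of the 12 tested ETS genes outside the list, 8 had an estimate above 0, as did 7724 of all 15626 genes tested. The median log2 fold change of the 12 was 0.18. ELK1, the ternary complex factor related to ELK4, had 1228, 1165, 1389, and 1627 reads and rose by 0.37 (adjusted p = 0.000132), whereas ELK3 gave 0.24 (0.108). ELF1 and ELF2, broadly expressed activators, rose by 0.47 and 0.24 (adjusted p = 1.49e-05 and 0.0164), and ELF4 gave 0.11 (0.379). FEV, a serotonergic factor of the ERG group, rose by 0.72 (adjusted p = 0.00304). ETV2, a factor of early blood vessel formation, fell by 0.79 (0.000198), and GABPA, a regulator of mitochondrial and housekeeping genes, fell by 0.27 (0.0114). The repressors ERF and ETV3 gave -0.01 (0.892) and 0.11 (0.251). The 7 untested ETS genes, ERG, FLI1, ETV3L, SPI1, SPIB, SPIC, and ETV7, had at most 10 reads in any library. Transcripts of the 10 listed genes shared no 100-base stretch with any other ETS gene.

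Several of the genes that donate promoters to ETS fusions rose strongly in LN95(KO). All 10 listed donor genes were tested, 5 were called higher and none lower, where 18.0% of all genes tested were called, and their median log2 fold change was 1.41 against -0.01 over all genes. KLK2, a kallikrein protease and androgen target, had 236, 225, 6946, and 6638 reads and rose 30.1-fold (adjusted p = 8.55e-19). ACSL3, a fatty acid ligase, had 3287, 3171, 12093, and 12430 reads and rose 3.88-fold (adjusted p = 8.81e-16). NDRG1, a stress- and androgen-responsive gene, had 412, 345, 3316, and 2874 reads and rose 8.37-fold (adjusted p = 8.28e-11). TMPRSS2, the usual partner of ERG, had 511, 556, 4434, and 3701 reads and rose 7.81-fold (adjusted p = 2.48e-08), while ERG, 2803 kb away on the same strand, stayed at 0 to 2 reads. Of the donors that were not called, HNRNPA2B1 and CANT1 rose by 0.86 and 0.26 on the log2 scale, and DDX5, HERPUD1, and FOXP1 fell by 0.50, 0.66, and 0.67. In the same libraries ETV1 was 1.19-fold lower, ETV4 and ETV5 held 20 to 77 reads, and ERG was at the detection limit.

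**Figure D4:**
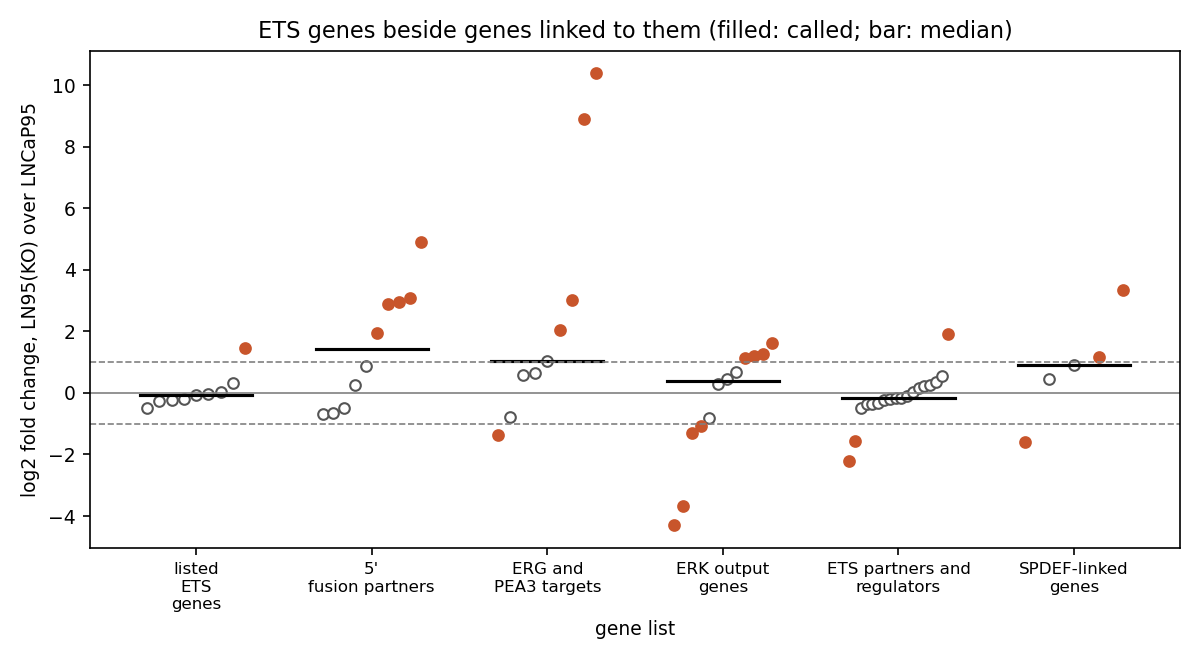
Log2 fold change of LN95(KO) over LNCaP95 for each tested gene of 6 lists, with filled points called, a bar at the median of each list, and dashed lines at a 2-fold change. The listed ETS genes lie close to 0 (median -0.07), the fusion donors reach 4.91 (KLK2), and the reported targets reach 8.90 (PLA1A), with the point above it, CRISP3, a fitted value for a gene with 0 reads in LNCaP95.

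Among 17 genes reported as ERG or PEA3 targets, 9 were tested, 4 were called higher and 1 lower, 55.6% against 18.0% of all genes tested. Their median log2 fold change was 1.02, the value of TDRD1. PLA1A, CRISP3, and TDRD1 passed the filter on low counts only through the LN95(KO) libraries. The share and the median therefore rest in part on genes that could be tested only because they were higher there. PLA1A, a phospholipase gene, had 8, 6, 3406, and 3269 reads, and rose by 8.90 on the log2 scale (SE 0.12, adjusted p = 8.55e-19). CRISP3, a secreted protein gene linked to ERG-positive tumors, had 0, 0, 164, and 165 reads and was at least 56.1-fold higher, taking 3 counts per library as the limit in LNCaP95. VIM, the mesenchymal intermediate filament, had 292, 303, 2393, and 2319 reads and rose 8.10-fold (adjusted p = 3.75e-16), though 24.6% of its exon bases overlap other genes. FZD4, a WNT receptor, had 268, 238, 937, and 1080 reads and rose 4.07-fold (adjusted p = 2.08e-12), with 18.9% of its exon bases shared with a neighbor. CACNA1D, a calcium channel gene, had 180, 199, 84, and 60 reads and fell by 1.36 on the log2 scale (adjusted p = 2.16e-06). The matrix metalloproteinase genes of the list, classical PEA3 targets, did not pass the filter on low counts, with at most 13 reads in any library. With no such filter MMP7 (0, 0, 6, and 9 reads) and MMP14 (1, 4, 10, and 9) were called higher, for 7 called genes. Those 2 calls rest on few reads. MMP1 had 1, 10, 13, and 9 reads, and its groups overlapped.

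Genes that respond to ERK signaling were mixed in direction. Of 15 genes that report ERK output, 12 were tested, 4 were called higher and 4 lower, 66.7% against 18.0% of all genes tested. Their median log2 fold change was 0.37. EGR1 passed the filter on low counts only through LNCaP95 and PHLDA1 only through LN95(KO), in each case the group where it was higher. A test against a 2-fold change (glmTreat) called 3 of them, DUSP5, EGR1, and EPHA2. DUSP5, a nuclear ERK phosphatase, had 591, 553, 31, and 26 reads and fell by 4.29 on the log2 scale (adjusted p = 4.84e-14). EGR1, an immediate early factor, had 125, 100, 11, and 6 reads and fell by 3.67 (adjusted p = 6.37e-09). EPHA2, a receptor kinase, had 141, 122, 404, and 380 reads and rose 3.05-fold (adjusted p = 1.68e-09), and SPRED1, a RAS inhibitor, had 274, 254, 560, and 573 reads and rose 2.19-fold (adjusted p = 5.73e-09). SPRY1 and DUSP6 were also called higher (log2 1.21 and 1.26) and SPRY2 and DUSP4 lower (log2 -1.31 and -1.08), so members of the same inhibitor families moved in opposite directions. DUSP6, at 17, 27, 57, and 46 reads, was not called without LNCaP95 replicate 1, and it shared 28.6% of its exon bases with another gene.

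Of 18 genes that encode ETS partners or regulators, all were tested, 1 was called higher and 2 lower, 16.7% against 18.0% of all genes, with a median log2 fold change of -0.17. RUNX1, a DNA-binding partner of several ETS factors, had 53, 40, 170, and 171 reads and rose 3.74-fold (adjusted p = 3.89e-08). ATXN1, whose protein binds the PEA3 gene repressor CIC, had 1280, 1242, 280, and 250 reads and fell by 2.22 on the log2 scale (adjusted p = 2.07e-13), while CIC gave -0.09 (0.277). DET1, a subunit of the ubiquitin ligase that degrades PEA3 proteins, passed the filter on low counts only through LNCaP95, where it was higher. It was called lower at 18, 19, 3, and 9 reads, with 35.9% of its exon bases shared with another gene. That call was lost without LN95(KO) replicate 3, with DESeq2, and in the test against a 2-fold change. COP1, its partner in that ligase, fell by 0.17 (adjusted p = 0.0347). SPOP, an ERG-degrading ligase adaptor, fell by 0.36 (2.30e-05), and USP9X, an ERG-stabilizing deubiquitinase, fell by 0.48 (2.93e-07). These are mRNA values, and protein levels of the ETS factors were not measured in these files.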

How the data were processed

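RNA-Seq libraries of 2 LNCaP95 and 2 LN95(KO) samples were grouped by their labels. The deposited values are raw gene counts. For these, the authors mapped reads with HISAT2 (version 2.1.0) against hg19 and obtained gene counts with HTSeq without regard to strand. Strand therefore did not separate reads over exons shared with an antisense neighbor. Reads set aside as ambiguous, which are counted for no gene, were 9.82% to 10.4% per library. The combined series table repeated the counts of the single libraries and was not used. Symbols and coordinates came from a later GENCODE release on GRCh37 (59899 of 60880 identifiers matched).

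Counts were fitted in R (version 4.3.3) with edgeR (version 4.0.16), using its robust quasi-likelihood test, TMM factors, and no covariate, after filterByExpr (minimum count 10 and minimum total 15). The filter needed 2 libraries at about that minimum, so a gene below it in 1 group was tested only where the other group was higher. Adjusted p-values are Benjamini-Hochberg values across all tested genes. Rose and fell mark an adjusted p under 0.05, and called also requires a fold change over 2. Fold changes are LN95(KO) over LNCaP95, CPM uses TMM-scaled library sizes, and per-kb levels divide CPM by the union of annotated exons. Intervals are at 95%, and counting intervals (exact binomial) and limits at 3 counts cover counting error only. No permutation test was used, since 2 libraries a group cannot give a two-sided p below 0.333. The fit was tested on simulated data. The alternatives were other scalings, no filter on low counts, DESeq2 (version 1.42.0), other fold criteria, leaving out each library, and another gene length. The common biological coefficient of variation was 4.27%.

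The members and gene lists were chosen with earlier results of these data known. Named were all 10 members, the other tested ETS genes, the called genes of each list with the smallest adjusted p (up to 4), and, chosen after their values were seen, those that a count or a clause needed. Several lists hold androgen-regulated genes. No protein sequence was used here. An item that the rule would name is not reported here.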

Additional observations from a re-analysis of the deposited data

Results flagged for a closer look

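Reads that did not align are outside the gene counts. Their share was at least 7.71% in both LN95(KO) libraries and at most 3.96% in both LNCaP95 libraries, which is above the level in the control samples. These reads enter no gene count, and what they are was not tested.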

How the results depend on the processing

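Of 81 refits of single members, 74 kept their sign and their call or lack of one (adjusted p under 0.05 with a fold over 2), 2 lost the call, and 5 changed sign. ETV1, SPDEF, and EHF had an adjusted p under 0.05 in every fit against no change, whereas the adjusted p of ETV5 exceeded it in 4 of 9 alternatives and that of ETV6 in 5, and that of ELK4 was under it without LN95(KO) replicate 3. DESeq2 left 3 members at that level (4 at an unadjusted p under 0.05), library totals left 4, and leaving out a library left 3 to 7. The number of called members was 0 with DESeq2, 0 when edgeR tested against a 2-fold change (glmTreat, with 1 at an unadjusted p under 0.05), and 6 with no fold criterion. Leaving out each library gave 0 to 1, and the 0 came without LN95(KO) replicate 4. For ETV4 the log2 fold change was 1.48 with DESeq2 (adjusted p = 0.0561), and 1.12 to 1.75 on leaving out a library, with adjusted p-values over the alternatives of 0.000770 to 0.0959. The sign turned for ELK4 on leaving out a library (-0.18 to 0.05), for ELF3 (-0.05 to 0.13, and -0.0024 with upper quartile factors), and for ETS2 with library totals (0.02). The cause was not tested. With no fold criterion, 14 ETS family genes, 15 partners and regulators, 10 fusion donors, 2 genes of the chromosome 14 region, and 9349 of all genes passed. The test against a 2-fold change called 3 ERK output genes and 1687 of all genes, DESeq2 called 2358 of all genes, and no filter on low counts gave 3362. Library totals moved the median of all genes to a log2 fold change of 0.05 and upper quartile factors to -0.05. No paired analysis was possible because no number was used in both groups. Depth limits ERG, ETV4, and ETV5, while at least 9038 reads in each library stand behind ETV1.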
